A study of Mus with 2 samples.

Results

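The transglutaminase family was examined in mouse bone marrow derived macrophages (BMDMs) under M2 conditions, with and without the FXR agonist GW4064. The members were 7 genes, Tgm1, Tgm2, Tgm3, Tgm4, Tgm5, Tgm6 and F13a1, of 20144 genes that had a probe matched to a RefSeq transcript on the array. They were chosen by family, and the family was selected on the difference of Tgm2 between the GW4064 and the DMSO array, which was known beforehand. The differences of the members are therefore a description and not a test. The cells came from male C57BL6/J mice of 10 weeks, were grown for 7 d with M-CSF, and were then kept for 24 hr with 10 ng/mL of IL-4 and either DMSO, the solvent, or 10 µM GW4064. Both groups therefore had IL-4, and no culture without IL-4 or with another FXR agonist was on the arrays. There was 1 Agilent 1-colour array per group, without replicates, so that no p-value or replicate error could be given, and the sources used here do not say whether the cells of an array came from 1 mouse or several.

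Transglutaminases are calcium-dependent enzymes that join the glutamine of one protein to the lysine of another and so cross-link proteins into stable polymers. Transglutaminase 2, the product of Tgm2, is found in many tissues, binds GTP, lies inside the cell and at its surface, and is known in macrophages as a gene that responds to IL-4 and to retinoic acid. F13a1 encodes the catalytic A subunit of coagulation factor XIII, which cross-links fibrin and is made by monocytes, macrophages and megakaryocytes. Tgm1, Tgm3 and Tgm5 serve the cornified layer of the skin, Tgm4 belongs to the prostate, and Tgm6 is known from nervous tissue.

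Signals are given below as the brightness of a spot in scanner units after Agilent's software had subtracted the background. Each is followed by the error that the software estimates for that spot, which covers the reading of the spot and not the spread between cultures. For a difference, the log2 signal of each array was set against that array's 75th percentile, and the DMSO array was subtracted from the GW4064 array. The 75th percentiles were 1209 (DMSO) and 1265 (GW4064). A probe was taken as measured where the software marked it as well above background, and the lowest such signal was 15.7 with DMSO and 15.1 with GW4064. The cells were checked against markers of macrophages. All 7 of these with a matched probe were measured, with differences between -0.25 and 0.13 and summed signals, on the scale of the DMSO array, of 154021 with DMSO and 143119 with GW4064. The 7 members had 11 probes, each printed once, of which 0 were marked as uneven and 0 were saturated. Of the 11 probes 4 were measured on both arrays and 7 on neither.

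**Figure D1:**
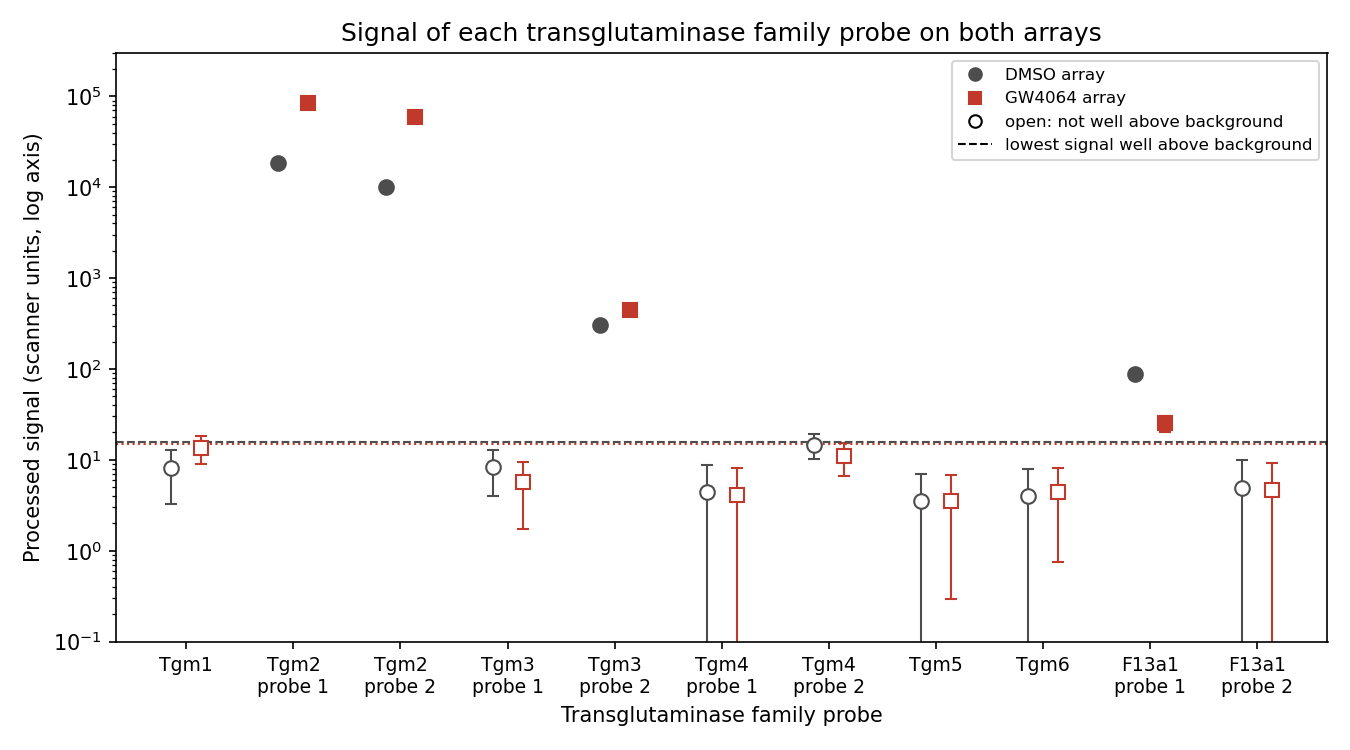
Processed signal (log axis) of the 11 transglutaminase family probes on the DMSO array (circles) and the GW4064 array (squares). Bars are the error estimated by the scanner software, and those that reach the lower edge run on below it. Filled symbols are well above background, and the horizontal lines mark the lowest such signal of each array. Both Tgm2 probes were higher with GW4064, the measured F13a1 probe was lower, and 7 probes lay below the lines.

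Tgm2 was the member with the largest difference. Its first probe (A_52_P220879) had a signal of 18376 ± 1838 with DMSO and 83669 ± 8367 with GW4064. Its second probe (A_55_P2034110) had 10029.6 ± 1003 and 58681 ± 5868. Both probes are assigned to the same transcript, NM_009373, the only one that RefSeq lists for this gene, and both were higher with GW4064. On the log2 scale relative to the 75th percentile, the level of the first probe went from 3.93 to 6.05 and that of the second from 3.05 to 5.54. The log2 differences were 2.12 and 2.48, each with an error of 0.20 from the software's estimate, which is 4.35-fold and 5.59-fold. The mean of 2.30, or 4.93-fold, is the value of the gene. In a culture, a different share of cells that express a gene and a different amount of its RNA per cell cannot be told apart.

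The spread between copies of a probe gives a second measure of the technical error. Among 38 probes that were printed 10 times and had a signal above 10000, the SD of the log2 difference over the copies had a median of 0.069 and was at most 0.24. This spread covers the spots of an array, and the spread between cultures is unknown. The probes of Tgm2 differed from each other by 0.36. Among 2711 genes with 2 probes measured on both arrays the median gap was 0.10, and 7.86% of these genes had a gap as large as that of Tgm2 or larger.

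The place of the spots on the slide was also checked, since single spots that differed 8-fold or more between the arrays, 577 in all, lay in patches. Spots with 2 or more such spots within 300 µm made up 16.5% of the slide and are called damaged areas here. Neither Tgm2 spot had any such spot within 300 µm. The other spots in the 5 rows and columns around them had medians of -0.16 and -0.15. The median pixel signal of the brighter probe on the GW4064 array was 87231, below the scanner's limit of 779405.

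F13a1 went the other way. Its first probe (A_51_P507801) had a signal of 87.6 ± 9.95 with DMSO and 25.2 ± 4.98 with GW4064, and was measured on both arrays. The log2 difference was -1.86, with an error of 0.33 from the software's estimate, which is 3.64-fold lower with GW4064. Its second probe (A_55_P2186125), assigned to the same transcript NM_028784, was measured on neither array, with signals of 4.93 and 4.68. The lower value of F13a1 thus rests on 1 spot per array, and at signals where the copies of a probe scatter more. Among 30 probes printed 10 times with a signal between 20 and 100, the SD over the copies had a median of 0.20 and was at most 0.59. No spot that differed 8-fold lay within 300 µm of the F13a1 spots. After a normexp correction of the background (offset 50), which draws dim signals together, the log2 difference of F13a1 was -0.62, within 2-fold. Without the filter on dim probes, so that the dark second probe counted as well, the mean was -1.002.

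Tgm3, the epidermal transglutaminase that also acts in the hair follicle, was higher by less than 2-fold. Its second probe (A_55_P2163493) had a signal of 306 ± 30.8 with DMSO and 446 ± 44.8 with GW4064, a log2 difference of 0.48 with an error of 0.21 from the software's estimate. This spot lay in a damaged area of the slide, with 10 other spots within 300 µm that differed 8-fold or more, and without damaged areas Tgm3 had no value. Its first probe (A_51_P495560) is assigned to the same transcript, NM_009374, and was measured on neither array, with signals of 8.38 and 5.66. The probes of Tgm3 therefore did not give the same picture. Without the filter on dim probes their mean log2 difference was -0.077.

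Tgm1, Tgm4, Tgm5 and Tgm6 had no probe well above background on either array, so that no difference is given for them. For Tgm1, which cross-links the cornified envelope, the signal was 8.03 ± 4.78 with DMSO and 13.6 ± 4.63 with GW4064. Of the 153 negative control spots, 8.50% were as bright as this or brighter with DMSO and 5.88% with GW4064. The brighter of the Tgm4 probes had 14.7 ± 4.50 and 10.998 ± 4.29, and the other had 4.45 and 4.09. Tgm5 had 3.53 and 3.55, and Tgm6 had 3.96 and 4.43. The median of the negative control spots was 4.05 with DMSO and 3.75 with GW4064. The signals of Tgm5 and Tgm6 were thus near those of spots that carry no mouse sequence, and those of Tgm1 and of the brighter Tgm4 probe were above most of them but not well above background. By a milder criterion of the software, a signal that is positive and significant, Tgm1, the brighter Tgm4 probe and the first Tgm3 probe passed on both arrays, and Tgm5 and Tgm6 passed on the GW4064 array alone. Expression of these genes below the limit of the arrays cannot be seen here.

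The relatives outside the 7 members gave no measured signal either. Tgm7, a transglutaminase whose gene lies close to Tgm5, had signals of 4.70 and 3.04. Epb42, which encodes protein 4.2 of the red cell membrane and has no cross-linking activity, had 4.20 and 3.90. In the RefSeq table Epb42, Tgm5 and Tgm7 lie close together on one chromosome, and none of them was well above background.

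Of the 3 members measured, 1 was 2-fold or more higher and 1 was 2-fold or more lower. Over all 13533 named genes with a measured probe, 276 (2.04%) were 2-fold or more higher with GW4064 and 367 (2.71%) were 2-fold or more lower, 4.75% in either direction. The median log2 difference of all these genes was 0.0069, and 51.6% of them were above 0, the share to set beside the counts of the lists below. Of these changed genes 42.9% were higher, against 30.2% after centring on the spike-in RNA, a setting that moved the median of genes measured on both arrays to -0.17. Since the family was chosen with the difference of Tgm2 known, its count is not read against these shares. The members on either side of the 2-fold limit were F13a1 at -1.86 and Tgm3 at 0.48.

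**Figure D2:**
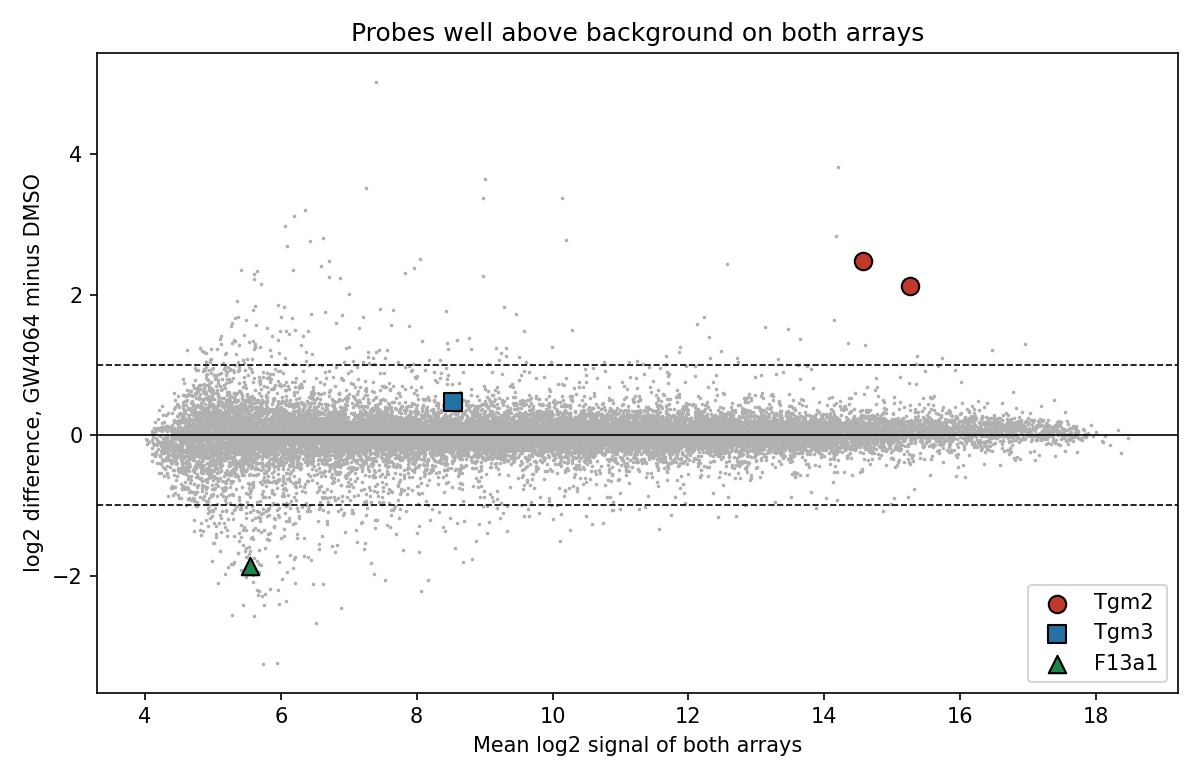
log2 difference between the arrays (GW4064 minus DMSO) against the mean log2 signal of both arrays, for the 21707 probes well above background on both (grey). Dashed lines mark 2-fold. The Tgm2 probes (2.12 and 2.48) lay among bright probes that otherwise scattered little, the F13a1 probe (-1.86) among dim probes with a wide scatter, and the Tgm3 probe (0.48) inside the lines.

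Tgm2 was also computed under other ways of processing. Some of these could not change its value, because its probes were unmarked, bright and outside damaged areas. They were keeping marked spots, dropping the filter on dim probes, requiring both arrays, and leaving out damaged areas. The deposited log2 table differs only by a constant for a gene like Tgm2. Over 11 settings its log2 difference was between 2.12 and 2.32, the lowest being that of its brightest probe alone, and 2.13 after centring on the spike-in RNA. F13a1 was lower under each of 11 settings, between -2.04 and -0.62. Several of these could not change it, since they use the same unmarked spot outside damaged areas. They were keeping marked spots, requiring both arrays, taking the brightest probe, and leaving out damaged areas. Tgm3 was between -0.077 and 0.50 over the 10 settings that gave it a value.

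**Figure D3:**
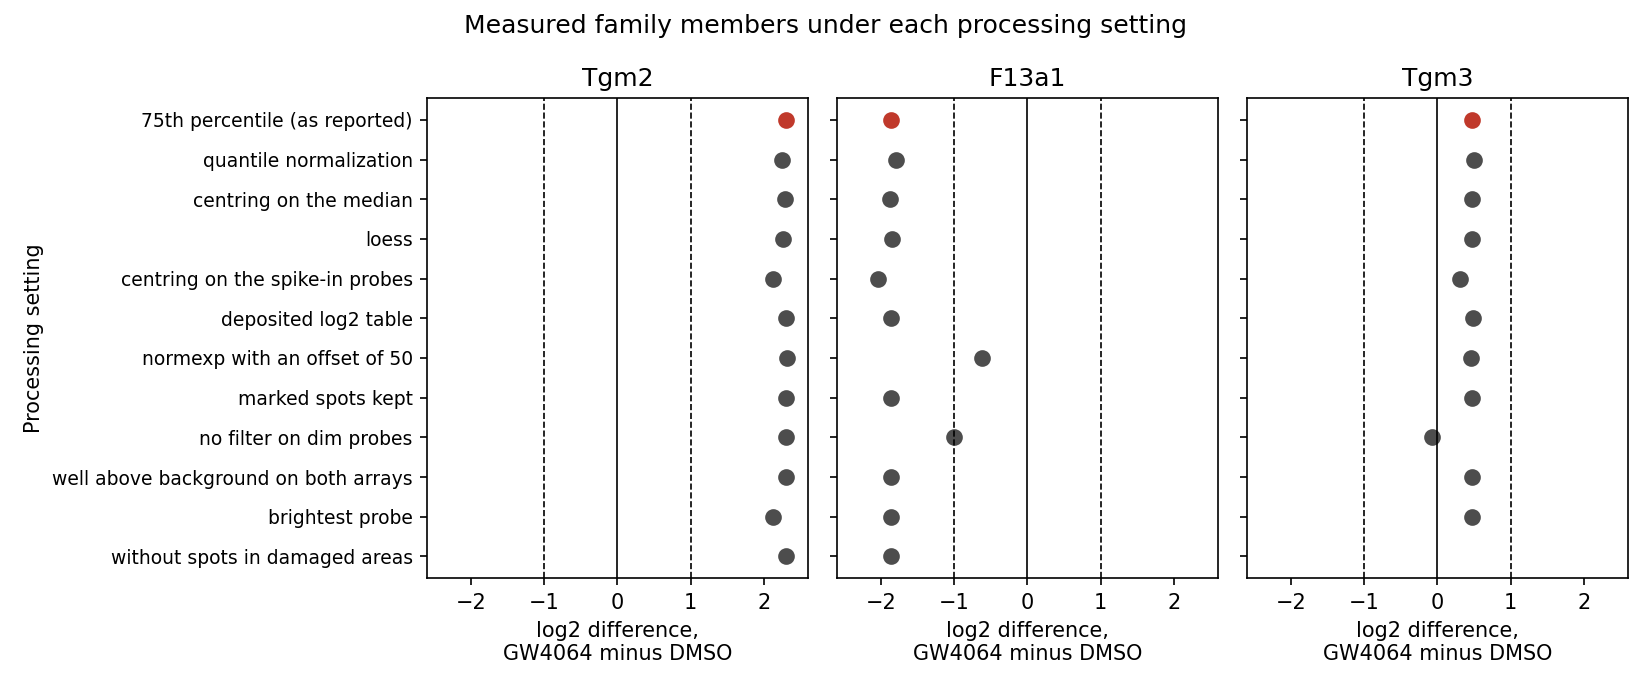
log2 difference (GW4064 minus DMSO) of Tgm2, F13a1 and Tgm3 under each processing setting (rows), with the reported setting in red. Solid lines mark 0 and dashed lines 2-fold. Tgm2 stayed above 2 in every row, F13a1 came within 2-fold in the normexp row, and Tgm3 has no point without spots in damaged areas.

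With 2 arrays, the genes most like Tgm2 can be named only by the size of their difference. Among genes measured on both arrays, those just above Tgm2 were Col4a5 (2.31), a collagen chain of basement membranes, Saa3 (2.35), an acute phase protein, and Cebpe (2.39), a transcription factor of the granulocyte lineage. Those just below were Pram1 (2.27), an adaptor protein of myeloid cells, Acod1 (2.26), the enzyme that makes itaconate, and Olfr1218 (2.15), an olfactory receptor gene. The spots of Cebpe and Pram1 had 0 spots with an 8-fold difference within 300 µm, as had those of Tgm2, while those of Col4a5, Saa3, Acod1 and Olfr1218 had 3 to 6 and lay in damaged areas. The genes directly beside Tgm2 and F13a1 in the RefSeq table had no matched probe. The nearest measured genes were Rprd1b (0.067) and Lbp (0.077) on the sides of Tgm2, and Fars2 (-0.024) and Ly86 (0.49) on the sides of F13a1.

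Transglutaminase 2 acts at the cell surface together with integrins, fibronectin, syndecan-4 and the uptake receptor LRP1. Of 14 such partner genes all 14 were measured, 0 were 2-fold or more higher or lower, 1 was above 0 and 13 were below, with a median log2 difference of -0.26 against 0.0069 for all genes. Of all genes 51.6% were above 0. Fn1, the gene of fibronectin, had 0.041 and was the one above 0. Centred on the spike-in RNA it was below 0 too, and the median of the list was -0.44. Itgb3, the integrin chain that transglutaminase 2 joins in the uptake of dying cells, had -0.54 as the mean of its 2 probes (-0.80 and -0.28). Mfge8, which bridges dying cells to that integrin, had -0.26, and Lrp1 had -0.15. On these arrays none of the measured partner genes was higher to the degree that Tgm2 was.

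Of 20 genes for the uptake of apoptotic cells, a process in which macrophage transglutaminase 2 takes part, 18 were measured, 5 above 0 and 13 below, with a median of -0.15. Stab2, a receptor for phosphatidylserine, was the only one past 2-fold, with 1.04 (0.87 centred on the spike-in RNA), and 0 were 2-fold or more lower. Among 19 substrates and intracellular partners of transglutaminase 2, 18 were measured, 10 above 0 and 8 below, with a median of 0.0093, which became -0.16 on the spike-in scale. Fbn1 (-1.07), which encodes the microfibril protein fibrillin-1, and Ltbp1 (-1.03), which encodes a matrix protein that holds latent TGF-beta, were 2-fold or more lower, and 0 were 2-fold or more higher. After the normexp correction they had -0.75 and -0.61, within 2-fold, and the spot of Ltbp1 lay in a damaged area. Without damaged areas 13 genes of this list had a value, 5 above 0 and 8 below, with a median of -0.11. Itgb3, Itgb5, Itgav, Lrp1 and Mfge8 belong to the partner and to the uptake list and are counted in both.

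The genes that respond to the signals known for Tgm2 were set beside it. Of 15 genes known to respond to retinoic acid, 12 were measured, 9 above 0 and 3 below, with a median of 0.25 (0.080 on the spike-in scale). Past 2-fold were Rarb (at least 18.8-fold, with 5.03 for its probe measured on both arrays), Cyp26b1 (at least 14.2-fold) and Cebpe (2.39), and 0 were 2-fold or more lower. After the normexp correction Rarb had 2.59, Cyp26b1 had 1.76 and Cebpe had 1.74, smaller but still past 2-fold. The bounds of Rarb and Cyp26b1 therefore hold only for the signals without this correction. Of 23 IL-4 target genes of macrophages 21 were measured, 12 above 0 and 9 below, with a median of 0.042 (-0.13 on the spike-in scale). Arg1 (3.82) was the only one past 2-fold, followed by Mgl2 (0.99), a lectin of M2 macrophages. The differences of Tgm2, Cebpe and Arg1 rest on the same pair of arrays, and with 1 array per group no relation between them can be computed.

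**Figure D4:**
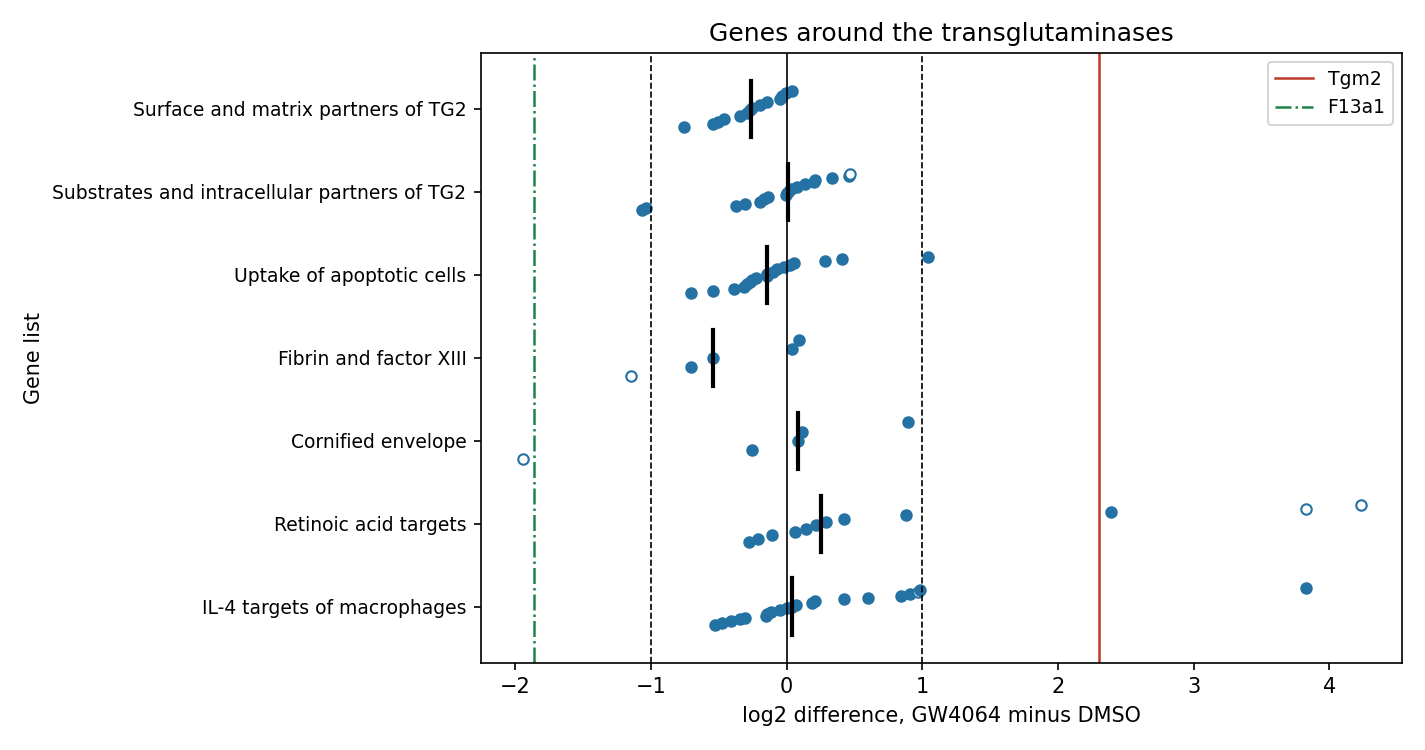
log2 difference (GW4064 minus DMSO) of each measured gene in the 7 lists of related genes that had measured members. Points are genes, open points are genes with a bound, thick bars are the medians, dashed lines mark 2-fold, and the vertical lines mark Tgm2 (2.30) and F13a1 (-1.86). The median of the surface and matrix partners lay at -0.26 and that of the retinoic acid targets at 0.25.

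Factor XIII has a carrier subunit, F13b, and cross-links fibrin. F13b was printed 10 times, 8 copies were left after marked spots were taken out, and it was not well above background, with mean signals of 3.83 and 3.62. Of 11 genes of fibrin and factor XIII, 5 were measured, 2 above 0 and 3 below, with a median of -0.54. They were Thbs1, Fn1, Itga2b, Itgb3 and Itgam, none of which encodes fibrinogen or a factor XIII subunit. The median is the value of Itgb3. Each is also counted in another list: Fn1 and Itgb3 as partners, Thbs1 and Itgb3 for uptake, Itga2b for platelets and Itgam for macrophages. On the spike-in scale all 5 were below 0, with a median of -0.72, and the median was -0.20 after the normexp correction and -0.25 without damaged areas. The fibrinogen genes Fga, Fgb and Fgg, the thrombin gene F2 and Serpinf2 were not well above background. Itga2b, an integrin chain of platelets, was at least 2.21-fold lower, and 0 genes of the list were 2-fold or more higher. Of the 16 cornified envelope genes, the substrates of the skin transglutaminases, 14 had a matched probe and 5 were measured, 3 above 0 and 2 below, with a median of 0.084 (-0.090 on the spike-in scale). Hrnr was at least 3.85-fold lower and 0 were 2-fold or more higher. After the normexp correction Itga2b had -0.20 and Hrnr had -0.63, within 2-fold. The cornified envelope list then had 2 genes above 0 and 3 below, with a median of -0.064. Without damaged areas 3 of its genes were left, 1 above 0 and 2 below, with a median of -0.25.

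Markers of other cell types that make transglutaminases differed between the arrays as well. Of 6 markers of megakaryocytes and platelets, cells rich in F13a1, 6 were measured and 5 were lower, with a median of -0.85. Ppbp (-1.66), Gp9 (at least 2.31-fold lower) and Itga2b were 2-fold or more lower, and Gp1bb had -0.56. After the normexp correction the median of the list was -0.15, with 2 above 0 and 4 below, and Ppbp (-1.23) was still past 2-fold, while Gp9 (-0.35) and Itga2b (-0.20) were not. Pf4, which macrophages express too, had 0.26. Their summed signal was 25212 with DMSO and 29717 with GW4064, most of it from Pf4, whose signals before scaling were 24612 and 30857. Of 4 monocyte markers 3 were measured, 1 above 0 and 2 below, with a median of -0.26, which was 0.49 over the 2 markers left without damaged areas. Ccr2 had -0.41 and Cx3cr1 had -0.26, and the summed signal was 464 and 388. The part of these cells in the lower signal of F13a1 was not tested.

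Fibroblasts and endothelial cells are known to make transglutaminase 2, and their part in the signal of Tgm2 was not tested. Of 10 stromal markers 9 were measured, 8 lower and 1 higher (0 higher after the normexp correction or on the spike-in scale), with a median of -0.76 and a summed signal of 28292 with DMSO and 14966 with GW4064. Acta2 (-1.05, also without spots in damaged areas) was past 2-fold, and after the normexp correction it had -0.99. Of 6 endothelial markers 5 were measured and 5 were lower, with a median of -0.22 and sums of 17910 and 16440, and Tek was not well above background. Most of these sums came from Vwf, whose signals before scaling were 16904 and 16204. For the members of the skin and prostate, 3 of 6 keratinocyte markers were measured, all lower, with a median of -0.30 and sums of 2833 and 2237. Most of these sums came from Trp63, with 2553 and 2174 before scaling. Krt5, Krt15 and Dsg3 were not well above background, and Krt14 (-1.55) lay in a damaged area. The 3 prostate markers were not well above background. The part of the skin cell types in the signal of Tgm3 was not tested. All 6 neutrophil markers were measured and lower, with a median of -0.62 and sums of 5744 and 4169.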

How the data were processed

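BMDMs under M2 conditions were measured on 1 Agilent 1-colour array per group (DMSO, GW4064), both on 1 slide and read in 1 scan. The free-text description of the GW4064 sample repeats that of the DMSO sample. The group was taken from its title, source name and treatment label, which all name GW4064, and the direction of every difference rests on these labels. The members and lists were chosen with earlier results of these data known. The authors deposited the intensity of each spot from Agilent Feature Extraction 10.7.1.1, with the background subtracted and trends within the array removed but without scaling between arrays, and a log2 table of both arrays. The differences in that deposited log2 table equalled those computed here for 39200 probes, apart from a constant of 0.0022, and the centring of its probes is not given in the sources used here.

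Marked spots were left out, spots of a probe were averaged on the log2 scale, and each array was shifted by its 75th percentile over 43020 non-control spots. Where a probe passed as well above background on 1 array alone, its value on the other array was raised to the lowest that passed there, if it was below it. The difference is then a bound, written as "at least", and 0 where it pointed the other way. Gene values are means over measured probes. Of 39429 probes, 26581 were named through RefSeq transcripts of GRCm38.p6. The array was designed on another build, so no coordinates are given. Probes listed under other identifiers were not assigned to a gene. No test was made with 1 array per group, the number of arrays limits the precision, and 2-fold was the threshold. The named genes were the members, listed genes past 2-fold, Tgm7, Epb42, F13b, the 3 genes on each side of Tgm2 by difference, and the nearest genes on the chromosome. The other listed genes named, and the use of the nearest measured genes on the chromosome, were chosen after the values were seen. There were 8 lists of related genes and 8 of cell type markers, and the values of some single markers are not reported here. The calculations were tested on simulated data. Normexp was run in limma 3.58.1 (R 4.3.3). All else was run in Python 3.11.15 with pandas 2.3.3, numpy 2.4.6, scipy 1.17.1 and statsmodels 0.14.6 (loess), and matplotlib 3.10.9 drew the plots.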

Additional observations from a re-analysis of the deposited data

How the results depend on the processing

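No paired analysis was possible because each group has 1 array. The log2 difference of Tgm2 was 2.13 when centred on the spike-in RNA and 2.12 for its brightest probe, and in 9 of 11 settings it moved by less than the SD over copies of bright probes. Several of those 9 could not move it, since they act only on dim probes, marked spots or damaged areas, or add a constant. The number of members 2-fold or more higher was 1 in every setting and at thresholds of 1.5-fold and 4-fold, and that of members lower was 1 except after normexp (0) and at 4-fold (0). The background counts of 276 genes higher and 367 lower moved more. They were 72 and 64 after normexp, 698 and 767 without a filter on dim probes, 107 and 164 for probes well above background on both arrays, 168 and 202 without damaged areas, 594 and 752 at 1.5-fold, and 65 and 79 at 4-fold. With the deposited log2 table, in which bounds were not applied, 495 genes were higher and 495 lower. After normexp 52.9% of the changed genes were higher. Probes could not be assigned by the array's own gene names, since the files hold no such column, and this alternative was not run. Dim signals limit F13a1 and the 4 members without a measured probe, and the single spot of Tgm3 lies in a damaged area.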
